A study of Mus musculus with 1 sample.

Results

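Among the peripheral T cells of a vehicle-treated mouse with small cell lung cancer (SCLC), 77 cells carried 2 productive T cell receptor (TCR) alpha chains. They were chosen from the deposited contig table as cells with a clonotype and 2 or more productive, high-confidence TRA contigs of different CDR3 nucleotide sequence. They made up 77 of 975 clonotyped cells (7.90%, 6.28% to 9.77%) and 77 of the 799 cells in which a productive alpha chain was found (9.64%, 7.68% to 11.9%). They are called dual-alpha cells below and are set against 722 single-alpha cells with exactly 1 productive TRA chain, while 176 clonotyped cells had none. No cell had 3 or more.

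The study followed an autochthonous SCLC model on a C57BL/6 background, in which Rb1 and Trp53 are deleted after an adenovirus carrying Cre is given into the trachea, under treatment with inhibitors of ERBB2 and PD-1. The data described here come from 1 library of 1 animal of the vehicle group, which received phosphate-buffered saline every 3 days, and its age is not given in the labels. From 150 µl of heparinised blood, red cells were lysed and T cells were enriched by removing other cells with a pan T cell kit, after which TCR and gene expression sequencing were read from the same droplet barcodes. The combination-treated mouse and the healthy reference were not analysed here. A single library holds no replicates, so nothing was tested between conditions or cells. Shares are given with exact 95% binomial (Clopper-Pearson) intervals, and sums of UMIs, the tags that mark single captured RNA molecules, with Poisson ones. All of them, like the limits for counts of 0, cover counting error only.

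An alpha beta T cell joins V, D and J segments at the beta locus and V and J segments at the alpha locus. Beta rearrangement is followed by allelic exclusion, so that a cell normally makes a single beta chain. At the alpha locus, both chromosomes are rearranged in the same thymocyte, and each can be joined repeatedly, with J segments used from the V side towards the constant gene Trac, until a receptor is positively selected. Cells with a second in-frame alpha chain are therefore a regular part of the T cell pool, and whether both chains reach the surface cannot be read from RNA. In GRCm39 the mouse Trac gene lies on the plus strand of chromosome 14 at chr14:54457978-54461663, with Traj58 at chr14:54394737-54394799 near the V side and Traj2 at chr14:54455293-54455358 near Trac.

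The label was checked against the markers of T cells. Cd3e, a signalling subunit of the TCR complex, had a UMI in 77 of 77 dual-alpha cells and in 696 of 722 single-alpha cells (96.4%, 94.8% to 97.6%). Trac had a UMI in 51 of 77 (66.2%, 54.6% to 76.6%) and 393 of 722 (54.4%, 50.7% to 58.1%). As a background, 93 barcodes outside the clonotyped cells that held at least 3 of 6 B cell markers had a Cd3e UMI in 4 (4.30%) and a Trac UMI in 3 (3.23%). Their median depth was 3632 UMIs, against 6680 in dual-alpha cells and 5368 in single-alpha cells.

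The dual-alpha cells fell into 69 clonotypes, of which 67 were seen in 1 cell each. A clonotype of 2 or more cells held 10 of the 77 dual-alpha cells (13.0%, 6.41% to 22.6%) and 56 of 722 single-alpha cells (7.76%, 5.91% to 9.95%). The dual-alpha clonotypes of several cells were clonotype 2, with 7 dual-alpha cells of 8, and clonotype 5, with 3 of 4. The CDR3 sequences of these clonotypes are shown because the same pair of alpha chains was assembled again in separate droplets. They are followed by a cell with 2 chains of the V and J pair used by invariant natural killer T cells and by a cell whose chains share TRAJ42. Each runs 5′ to 3′ in the sense of the transcript. In alpha chains, capitals mark the longest 3′ stretch shared with any different alpha CDR3 of the same TRAJ gene in this library. The stretch is defined by the shared letters alone, so it can include junction bases beside the J segment.
Clonotype 2, TRAV8D-2 and TRAJ23: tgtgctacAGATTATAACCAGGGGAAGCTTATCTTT
Clonotype 2, TRAV13N-1 and TRAJ9: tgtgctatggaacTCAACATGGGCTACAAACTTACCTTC
Clonotype 2, TRBV1 and TRBJ1-4: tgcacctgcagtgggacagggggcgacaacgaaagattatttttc
Clonotype 5, TRAV7D-4 and TRAJ23: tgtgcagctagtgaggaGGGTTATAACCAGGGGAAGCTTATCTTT
Clonotype 5, TRAV13-1 and TRAJ31: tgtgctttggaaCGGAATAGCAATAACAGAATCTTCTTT
Clonotype 5, TRBV12-2 and TRBJ2-7: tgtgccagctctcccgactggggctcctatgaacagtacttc
Clonotype 658, TRAV11 and TRAJ18, first chain: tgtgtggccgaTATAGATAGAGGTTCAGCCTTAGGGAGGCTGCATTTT
Clonotype 658, TRAV11 and TRAJ18, second chain: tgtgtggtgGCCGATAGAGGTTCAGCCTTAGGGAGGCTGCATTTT
Clonotype 374, TRAV13-1 and TRAJ42: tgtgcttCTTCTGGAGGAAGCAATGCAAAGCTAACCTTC
Clonotype 374, TRAV14N-1 and TRAJ42: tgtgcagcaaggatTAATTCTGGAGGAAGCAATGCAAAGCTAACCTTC

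The chains of a cell were ordered by their UMIs and then by their reads. The first chain had 1 to 17 UMIs with a median of 4, and the second had 1 to 15 with a median of 3. The only alpha chain of a single-alpha cell had 1 to 32 UMIs with a median of 3. The ratio of second to first chain had a median of 0.667 (quartiles 0.556 and 1) in UMIs and 0.624 in reads. The chains were equal in UMIs in 21 of the 77 cells. Since the presence of the second contig chose the cells and the order was set by its UMIs, these values describe the selection and carry no comparison.

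**Figure D1:**
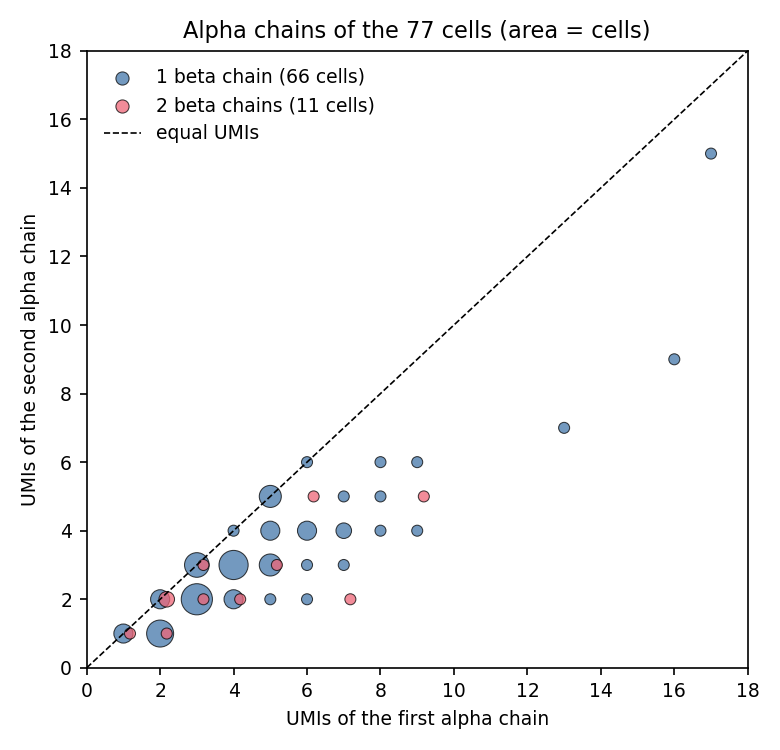
UMIs of the first (x axis) and second (y axis) alpha chain of the 77 dual-alpha cells, with point area proportional to the number of cells. Blue points are the 66 cells with 1 beta chain, red points, moved slightly to the right, the 11 with 2, and the dashed line marks equal UMIs; most cells sit at 6 UMIs or fewer for both chains, and the cell at 17 and 15 UMIs is that of clonotype 737.

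Just inside the selection lay 11 cells whose second chain rested on 1 UMI, and in 4 of them the first chain did too. Both chains had at least 2 UMIs in 66 cells and at least 3 in 45. Just outside it lay 151 single-alpha cells (20.9%, 18% to 24.1%) that held a further TRA contig, of another V and J pair, which the authors' pipeline called non-productive, with a median of 2 UMIs. In dual-alpha cells, a non-productive TRA contig beside the 2 productive ones was found in 3 of 77 (3.90%, 0.811% to 11.0%), and all 3 were among the 11 cells with 2 productive beta chains. Among the 875 barcodes that the table did not call cells but that held a productive alpha chain, 11 held 2.

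Gene expression in the same droplets gave a further count of the V gene of each chain. As both were read from the same droplet barcodes and the cells were chosen for these contigs, it is no separate evidence for a chain. The V gene of the first chain had at least 1 UMI in the expression matrix in 54 of 77 cells (70.1%, 58.6% to 80.0%) and that of the second chain in 56 of 77 (72.7%, 61.4% to 82.3%). For the only chain of single-alpha cells it was 461 of 722 (63.9%, 60.2% to 67.4%). In cells assembled with other V genes, the same V genes had a UMI in 0.538% (first chains), 0.553% (second chains) and 0.544% (only chains) of cell and gene pairs. Both V genes were found in 41 cells, the first alone in 13, the second alone in 15 and neither in 8. Where the second contig rested on 1 UMI, its V gene was found in 6 of 11 cells (54.5%, 23.4% to 83.3%).

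The mouse alpha locus holds duplicated V genes, marked D and N in their names, and 12 of the 61 V genes used by dual-alpha cells had no UMI in any clonotyped cell. These included TRAV6N-7, TRAV12N-2, TRAV3N-3 and TRAV4N-3. They accounted for 31 of the 154 chains, which were thus without a UMI in the expression matrix. Of the 722 only chains of single-alpha cells, 203 used V genes without a UMI in any clonotyped cell, so the shares of the groups above also carry which V genes were used. In clonotype 2 both V genes had a UMI in the expression matrix in every dual-alpha cell but 1, which had 2 TRAV13N-1 contig UMIs and none in the matrix. The cell with 16 TRAV13N-1 and 9 TRAV8D-2 contig UMIs had 14 and 11 UMIs of these genes in the expression matrix. Another, with 7 and 13, had 7 and 15.

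The J segments of the 2 alpha chains of a cell lay near each other. TRAJ genes are numbered by position, with high numbers towards the V genes and low numbers towards Trac. Across the 77 cells, the TRAJ number of the first and of the second chain had a Pearson correlation of 0.589 and a Spearman correlation of 0.580, given as a description of cells from 1 mouse. The median gap was 7 TRAJ numbers (quartiles 2 and 14), 34 cells had a gap of 5 or less, and 6 used the same TRAJ gene in both chains. With each clonotype counted a single time, the Pearson correlation was 0.600 over 69 cells. The second chain had the lower TRAJ number in 37 of the 77 cells (48.1%, 36.5% to 59.7%), where the 6 cells with the same TRAJ gene count as not lower. The order by UMIs thus did not follow the order along the locus. Over the 77 cells, the position of the V genes showed no such relation. The distances of both V genes from Trac had a Pearson correlation of -0.0021 and a Spearman correlation of 0.14. These rest on the V gene names assigned to the chains. They were not read by number of beta chains or with each clonotype counted a single time.

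The relation differed in value between cells with 1 and with 2 productive beta chains. In the 66 cells with 1 beta chain the Pearson correlation of TRAJ numbers was 0.733, and a gap of 20 or more was seen in 4 of them. In the 11 cells with 2 beta chains it was -0.12, and the gap was 20 or more in 5. Single-alpha cells gave a comparison from chains the selection had not used. In 147 of them a TRAJ number was available for the productive and for a non-productive contig, and these had a Pearson correlation of 0.735, a median gap of 5 and a gap of 20 or more in 8 cells. The number of beta chains was taken from the same contig table, and 11 cells set no precise value for a correlation.

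**Figure D2:**
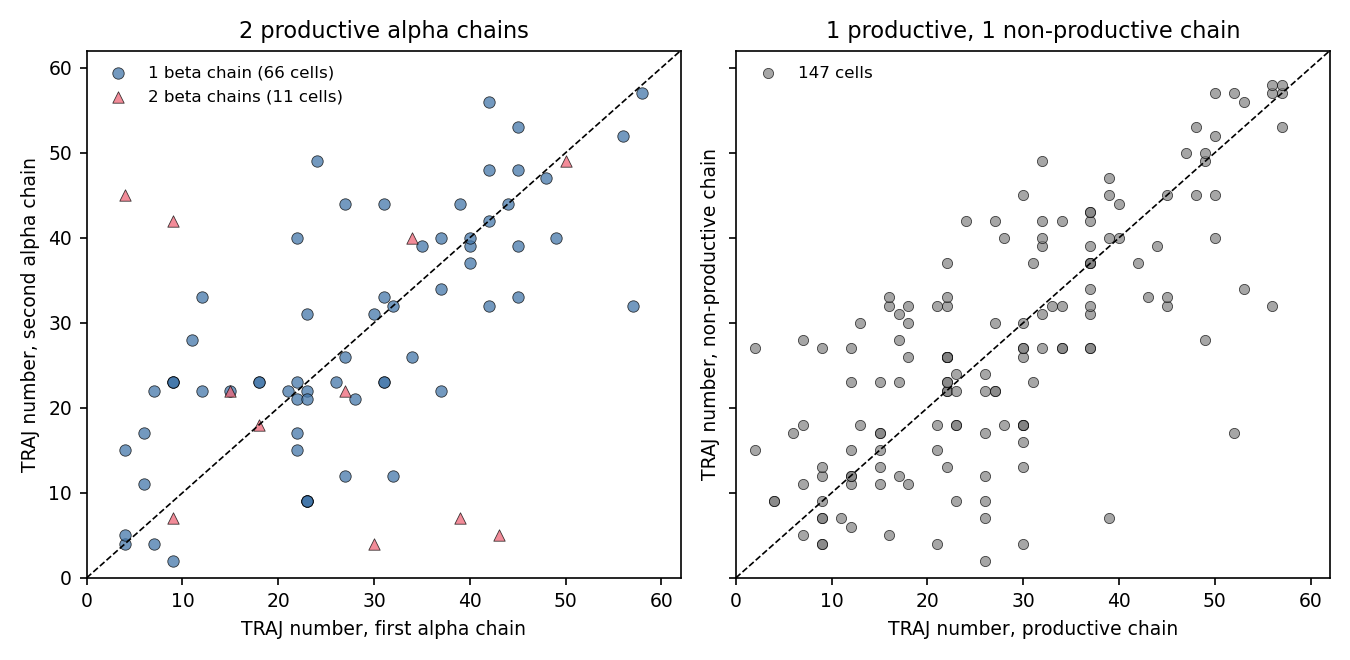
TRAJ number of both alpha chains in dual-alpha cells (left, first chain on the x axis, second on the y axis) and of the productive (x axis) and non-productive (y axis) alpha chain in single-alpha cells (right). Each point is a cell, red triangles are cells with 2 beta chains and dashed lines mark equal numbers; most points lie near the line, and a gap of 20 or more numbers was seen in 5 of the 11 triangles and 4 of the 66 circles on the left and in 8 of the 147 cells on the right.

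The J cluster was split into 3 stretches by TRAJ number. TRAJ genes numbered 41 and over, on the V side, made up 20.8% of first chains, 20.8% of second chains and 23.0% of only chains. Those numbered 21 to 40 made up 50.6%, 53.2% and 50.4%, and those numbered 20 and under 28.6%, 26.0% and 26.6%. The interval of each share of 77 chains spanned the value in single-alpha cells. Over all 154 chains of dual-alpha cells, TRAJ23 was the most used gene with 16 (10.4%), and TRAJ22 followed with 13 (8.44%). With each clonotype counted a single time, TRAJ22 came first with 13 of 138 chains (9.42%) and TRAJ23 had 8. Over all single-alpha cells, TRAJ22 had 49 of 722 chains (6.79%) and TRAJ23 had 30 (4.16%).

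A second productive beta chain was found in 11 of 77 dual-alpha cells (14.3%, 7.35% to 24.1%). It was found in 25 of 722 single-alpha cells (3.46%, 2.25% to 5.07%) and in 7 of the 151 single-alpha cells with a non-productive TRA contig (4.64%, 1.88% to 9.32%). The interval of the dual-alpha cells did not overlap that of all single-alpha cells and did overlap that of those with a non-productive contig. No dual-alpha cell lacked a beta chain, which allows a share of up to 3.90% by the limit of 3 counts and 4.68% by the exact interval. Of 722 single-alpha cells, 30 had none (4.16%), a share within that interval. The 11 cells with 2 alpha and 2 beta chains had 2876 to 13995 UMIs with a median of 6903, against 6643 in the 66 with 1 beta chain. They held the 3 dual-alpha cells with a further, non-productive TRA contig, and 2 cells with UMIs of both coreceptors (Cd4 and Cd8a or Cd8b1), against 2 of the 66. Their Scrublet doublet score had a median of 0.0562, against 0.0414. Droplets that captured 2 cells would also hold 2 alpha and 2 beta chains, and the part of such droplets was not tested. Scrublet predicted 1 of the 77 as a doublet, of clonotype 500, which had 2 beta chains and the most UMIs of the dual-alpha cells.

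The share of dual-alpha cells was also read by depth, without a test. In 4 bins of rising total UMIs, over cells with an alpha chain, it was 6.5% (3.51% to 10.9%), 8.0% (4.64% to 12.7%), 14.1% (9.56% to 19.7%) and 10.0% (6.22% to 15.0%). In 4 bins of rising beta chain contig UMIs it was 5.77% (3.02% to 9.86%), 9.60% (5.88% to 14.6%), 11.1% (7.22% to 16.0%) and 12.5% (8.0% to 18.3%). The intervals of the lowest and highest bins overlapped in both series. The beta chain contigs had a median of 11 UMIs in dual-alpha cells and 8 in single-alpha cells, and the selection of dual-alpha cells asks for an additional contig to be detected.

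The dual-alpha cells were found among both CD4 and CD8 T cells. Cells with a UMI of Cd4, the coreceptor for MHC class II, and none of Cd8a or Cd8b1, the chains of the coreceptor for MHC class I, were taken as the CD4 class, and the reverse as the CD8 class. By this rule, 17 dual-alpha cells were of the CD4 class, 48 of the CD8 class, 4 had UMIs of both and 8 of neither. The share of dual-alpha cells was 17 of 225 in the CD4 class (7.56%, 4.46% to 11.8%) and 48 of 433 in the CD8 class (11.1%, 8.29% to 14.4%). After thinning to 2500 UMIs per cell, which left out 3 dual-alpha and 69 single-alpha cells, the shares were 10 of 152 (6.58%, 3.20% to 11.8%) and 48 of 414 (11.6%, 8.67% to 15.1%). The intervals overlapped each time, and the difference between the classes was not tested. In the B-marker barcodes, a Cd4 UMI was found in 2 of 93 (2.15%) and a Cd8a or Cd8b1 UMI in 3 (3.23%). With each clonotype counted a single time, the share in the CD8 class was 9.98%.

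**Figure D3:**
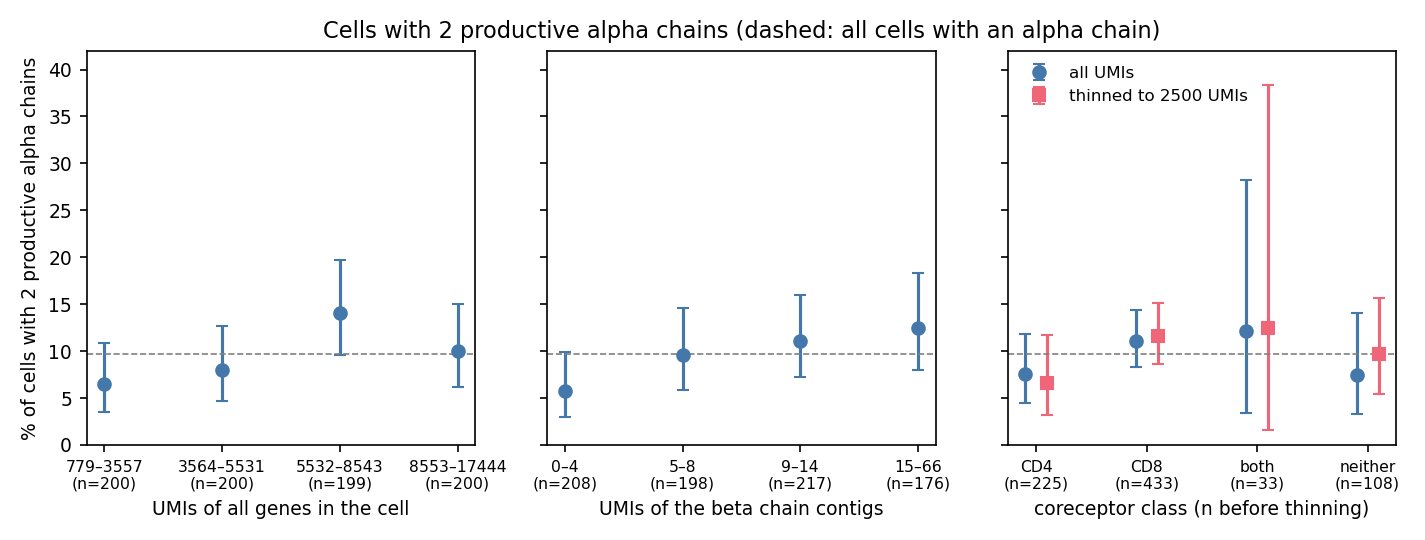
Share of dual-alpha cells among cells with an alpha chain (y axis, percent) by bins of the cell's total UMIs (left), by bins of the UMIs of its beta chain contigs (middle) and by coreceptor class (right, blue circles for all UMIs and red squares after thinning to 2500 UMIs). Points are shares, bars are exact 95% binomial intervals and the dashed line is the share of 9.64% over all such cells; intervals overlap between neighbouring bins and between the CD4 and CD8 classes.

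Gene expression was compared on UMIs summed within each group of cells and scaled to 10000, with 523957 UMIs in dual-alpha and 4484357 in single-alpha cells. Of 3638 genes with at least 200 UMIs over both groups, apart from receptor, immunoglobulin, mitochondrial and ribosomal protein genes, 43 were more than 1.5-fold higher in dual-alpha cells (1.18%) and 128 more than 1.5-fold lower (3.52%). The median ratio over these genes was 0.978. Most genes at the lower end had few UMIs in dual-alpha cells, so that no more than 20 UMIs stood behind any of the 10 lowest ratios. As 77 cells of 1 library give no replicate, a gene past 1.5-fold is described here and not tested.

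Among genes with at least 200 UMIs, the highest ratios were led by Gzmk, a granzyme of memory-like CD8 T cells. It had 1.95 UMIs per 10000 against 0.765, a ratio of 2.55 (2.02 to 3.18). Ccl5, a chemokine made by memory and effector T cells, had 66.8 against 36.5 UMIs per 10000, a ratio of 1.83 (1.76 to 1.90). Clonotypes 2 and 5 held 68 of the 102 Gzmk UMIs and 1549 of the 3498 Ccl5 UMIs. With clonotypes of several cells left out on both sides, the ratio was 1.45 for Gzmk, no longer past 1.5-fold, and 1.51 for Ccl5 (41.4 against 27.4 UMIs per 10000). Against single-alpha cells with a non-productive TRA contig, the ratio was 1.96 for Gzmk and 1.32 for Ccl5, the latter no longer past 1.5-fold. Phf6, a chromatin-associated protein, reached a ratio of 2.17 with 37 of its 62 UMIs in 1 cell. Isg15, a ubiquitin-like protein induced by interferon, had a ratio of 1.96, and a pair of cells held 13 and 11 of its 43 UMIs. Lcn4, Acot7, Ptpre, Hnrnph2, the interferon-induced GTPase gene Gbp9 and the cytokine signalling inhibitor Socs1 had ratios of 1.70 to 2.07. Of these, Gbp9 stood at 1.48 over clonotypes of 1 cell, Acot7 at 1.23 against single-alpha cells with a non-productive contig and Ptpre at 1.38 over cells with exactly 1 beta chain. At the same minimum, the lowest ratios were 0.401 for Zfp384, 0.434 for Gps1 and 0.466 for Ascc1. Those of Hvcn1, Slc30a7, Ms4a6c, Rrbp1, Zc3h12d and Dleu2 were 0.481 to 0.508. These genes were spread over 9 to 18 dual-alpha cells with at most 3 UMIs in a cell.

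The gene lists were read against all 9653 genes with at least 20 UMIs over both groups, of which 7.71% were more than 1.5-fold higher and 14.6% more than 1.5-fold lower in dual-alpha cells, with a median ratio of 0.971. None of the 13 genes of the receptor complex and its proximal signalling was past 1.5-fold in either direction, with a median ratio of 0.912. Ptprc, the CD45 phosphatase, had a ratio of 0.891 (0.814 to 0.975), and Cd3e one of 1.10 (1.0 to 1.20). Cd3d, a further signalling subunit, had 1.10 and Cd3g 1.02. Trac itself, which the list of tested genes left out, had 1.91 UMIs per 10000 in dual-alpha and 1.44 in single-alpha cells, a ratio of 1.33 (1.06 to 1.64). As the cells were chosen for an additional TRA transcript, which carries Trac, this value describes the selection. Of the beta chain constant genes, Trbc1 had a ratio of 0.753 (0.554 to 1.0) and Trbc2 of 1.01 (0.841 to 1.20).

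Of 10 genes of resting and circulating T cells, none was past 1.5-fold, with a median ratio of 0.894. Klf2, a factor of quiescent T cells, had 12.8 against 12.0 UMIs per 10000, a ratio of 1.06 (0.980 to 1.15). Il7r, the receptor for the survival cytokine IL-7, had a ratio of 0.836 (0.758 to 0.919), Foxp1 of 0.857 (0.772 to 0.95) and Lef1 of 0.876 (0.786 to 0.975). Lef1, a factor of naive T cells, had a UMI in 70 of the 77 cells. Satb1, at 0.842 (0.730 to 0.967), and Igfbp4, the highest of the list at 1.34 (1.18 to 1.53) with 43 of its 276 UMIs in 1 cell, are named after their values had been seen.

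Of 12 memory and effector genes, Ccl5 alone was more than 1.5-fold higher and none was lower, with a median ratio of 1.13. S100a6 and Lgals1, which are raised in antigen-experienced T cells, had ratios of 1.36 (1.21 to 1.52) and 1.38 (1.22 to 1.56), and Ly6c2 had 0.836 (0.744 to 0.938). Without clonotypes of several cells, S100a6 stood at 1.14 and Lgals1 at 1.44, and 2 of the 12 genes were more than 1.5-fold higher (Ccl5 and Tbx21, both at 1.51) and 1 lower (Cxcr3, at 0.527), the last 2 named after their values had been seen. Of 9 cytotoxic genes, 4 were more than 1.5-fold higher and none lower, with a median ratio of 1.25. These were Gzmk, Gzmb, Klrg1 and Cx3cr1, of which Klrg1 and Cx3cr1 are named after their values had been seen. The granzyme Gzmb had 0.534 against 0.299 UMIs per 10000, a ratio of 1.79 (1.15 to 2.70), with 14 of its 28 UMIs in clonotypes 2 and 5. Klrg1 owed 18 of its 27 UMIs to a single cell of clonotype 737. Nkg7, a granule protein of killer cells, had a ratio of 1.22 (1.11 to 1.33), Ctsw of 1.04 (0.886 to 1.20) and Gzma of 1.25 (0.921 to 1.67). Of the 518 Nkg7 UMIs, 172 were in clonotypes 2 and 5. Nkg7 stood at 1.03 over clonotypes of 1 cell and at 1.01 against single-alpha cells with a non-productive contig. Over clonotypes of 1 cell, 3 of the 9 were higher. The share of all genes past 1.5-fold over these clonotypes was not determined at the UMI minimum of the lists. The shares given above are for all cells, so the memory and cytotoxic counts over clonotypes of 1 cell have no matching share to be read against. Klrg1 went from a ratio of 3.12 (1.93 to 4.91) to 3.95 and Cx3cr1 from 2.20 (1.37 to 3.42) to 2.79. Against single-alpha cells with a non-productive contig, Klrg1 had a ratio of 1.41, no longer past 1.5-fold. Of the 26 Cx3cr1 UMIs, 8 were in the cell of clonotype 918 and 8 in that of clonotype 179, which had 2 beta chains and UMIs of both coreceptors. Gzma went to 2.81, with 51 UMIs from a pair of dual-alpha cells, 37 in the cell of clonotype 918 and 14 in that of clonotype 500, the predicted doublet.

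**Figure D4:**
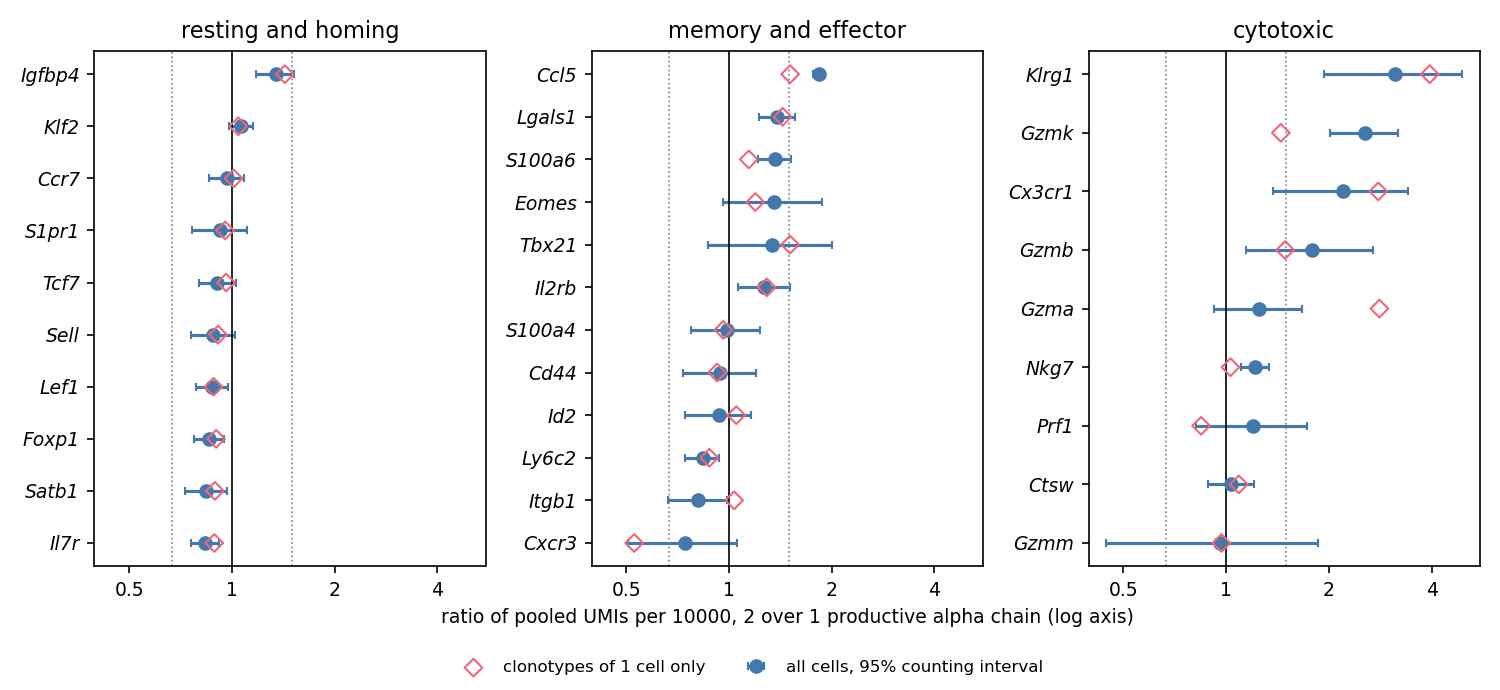
Ratio of pooled UMIs per 10000 in dual-alpha over single-alpha cells (x axis, log scale) for the genes of the resting, memory and cytotoxic lists with at least 20 UMIs. Blue points are all cells with 95% counting intervals, open red diamonds are cells of clonotypes seen in 1 cell, dotted lines mark 1.5-fold in either direction and the solid line a ratio of 1; resting genes stay between the dotted lines, and Ccl5, Gzmk, Gzmb, Cx3cr1 and Klrg1 lie above them over all cells, with Gzmk and Gzmb at 1.45 and 1.49 and Klrg1, Cx3cr1 and Gzma at 3.95, 2.79 and 2.81 over clonotypes of 1 cell, where Cxcr3 lies below the lower line at 0.527.

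A Gzmk UMI was found in 16 of 77 dual-alpha cells (20.8%, 12.4% to 31.5%) and 58 of 722 single-alpha cells (8.03%, 6.16% to 10.3%), and after thinning in 14 of 74 (18.9%, 10.7% to 29.7%) and 41 of 653 (6.28%, 4.54% to 8.42%). Clonotypes 2 and 5 supplied 10 of the 16 cells. Among the other 67 dual-alpha cells, whose clonotypes were seen in 1 cell, 6 had a Gzmk UMI (8.96%, 3.36% to 18.5%), against 35 of 666 single-alpha cells of such clonotypes (5.26%, 3.69% to 7.23%). No B-marker barcode had one, which allows a share of up to 3.23%. For Ccl5, UMIs were found in 33 of 77 dual-alpha cells (42.9%, 31.6% to 54.6%), in 225 of 722 single-alpha cells (31.2%, 27.8% to 34.7%) and in 13 of 93 B-marker barcodes (14.0%, 7.66% to 22.7%).

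Within clonotype 2 every cell was of the CD8 class. The 7 dual-alpha cells had 15, 107, 133, 155, 217, 249 and 300 Ccl5 UMIs and 6 to 20 Gzmk UMIs. Pooled, they had 304 Ccl5 UMIs per 10000 (287 to 322) and 16.8 of Gzmk (13.0 to 21.4). In the 54 single-alpha cells of other clonotypes of 2 or more cells, of all classes, the values were 171 (166 to 176) and 4.73 (3.95 to 5.63). The 3 dual-alpha cells of clonotype 5, of the CD8 class as well, had 73, 147 and 153 Ccl5 UMIs and 1 Gzmk UMI each. The remaining 38 dual-alpha cells of the CD8 class had 58.0 Ccl5 UMIs per 10000 (55.4 to 60.7), against 33.6 (33.0 to 34.3) in the 344 single-alpha cells of that class whose clonotype was seen in 1 cell. The shares of these cells with a Ccl5 UMI were 17 of 38 (44.7%, 28.6% to 61.7%) and 145 of 344 (42.2%, 36.9% to 47.6%), with overlapping intervals, and the highest of the dual-alpha cells had 272, 231, 203 and 200 UMIs, the last being the predicted doublet. For Gzmk the values were 0.95 (0.641 to 1.36) and 0.568 (0.483 to 0.663), with intervals that overlapped. In the CD4 class, Ccl5 had 5 UMIs in 17 dual-alpha cells (0.523 per 10000, in 3 of the cells) and 1095 UMIs in 208 single-alpha cells (11.7 per 10000, in 21 of the cells).

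**Figure D5:**
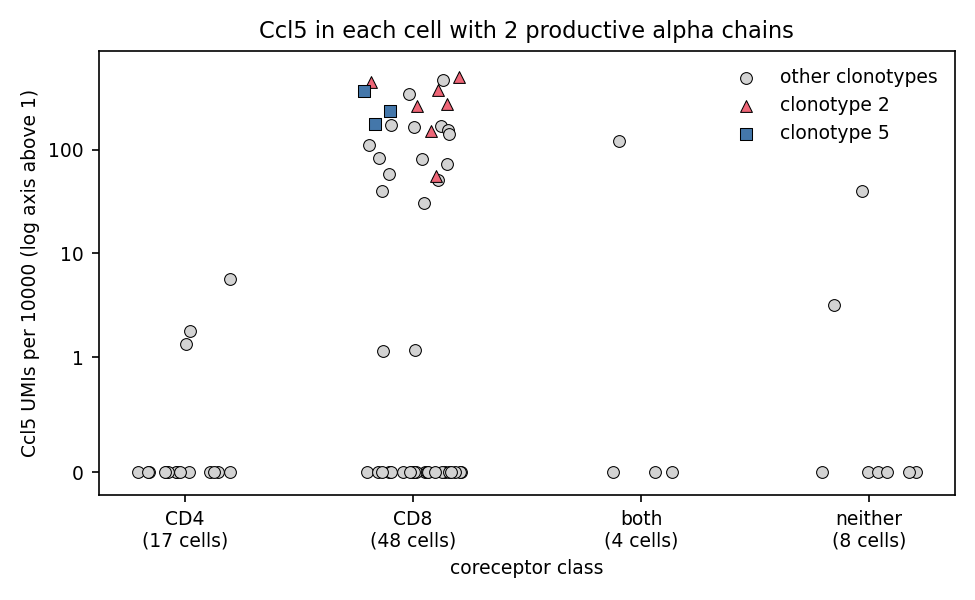
Ccl5 UMIs per 10000 (y axis, log scale above 1) in each of the 77 dual-alpha cells by coreceptor class (x axis). Red triangles are cells of clonotype 2, blue squares of clonotype 5 and grey circles of other clonotypes; the 10 cells of the expanded clonotypes all carry Ccl5, and most other cells are at 0.

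Clonotypes 2 and 5 each held 1 single-alpha cell. In clonotype 2, whose Trav8d-2 and Trav13n-1 genes lie at chr14:53279885-53280348 and chr14:53399856-53400367 in GRCm39, the TRAV8D-2 chain led by UMIs in 4 of the 7 dual-alpha cells and the TRAV13N-1 chain in 3. The eighth cell, counted as single-alpha, had the TRAV8D-2 chain with 2 UMIs and a TRAV13N-1 and TRAJ9 contig of 1 UMI and 611 reads called non-productive. In clonotype 5 the single-alpha cell had the TRAV13-1 chain with 4 UMIs and no TRAV7D-4 contig, and 1 of the 3 dual-alpha cells rested on 1 UMI for each chain. Cells under other clonotype numbers shared chains with dual-alpha cells too. The beta CDR3 of the dual-alpha cell of clonotype 918 was found in a cell of clonotype 15 together with 1 of its alpha chains. It was also in another cell of clonotype 15 and in clonotype 782, where no alpha chain was found. A beta and an alpha chain of clonotype 179 were found together in clonotype 180. A beta CDR3 of clonotype 619 was found in clonotype 656, and one of clonotype 500, that of the predicted doublet, in 2 cells each of clonotypes 13 and 25, in each case with no shared alpha chain.

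Most alpha CDR3 sequences were seen in a single clonotype. Of 138 different alpha CDR3 sequences in dual-alpha cells, 8 were found in more than 1 clonotype (5.80%, 2.54% to 11.1%), against 16 of 681 in single-alpha cells (2.35%, 1.35% to 3.79%), and the intervals overlapped. The one found most widely is shown for its presence beside 5 different beta chains in 5 cells, 1 of them dual-alpha.
TRAV14N-2 and TRAJ22: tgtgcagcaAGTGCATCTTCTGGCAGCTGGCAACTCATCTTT
Across the cells it was assigned to 3 V gene names.

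Some dual-alpha cells stood out by their genes. The cell of clonotype 658 carried TRAV11 and TRAJ18 in both alpha chains, the gene pair of the invariant receptor of natural killer T cells in mice. These chains had CDR3 lengths of 48 and 45 bases and 2 and 1 UMIs, and neither CDR3 was compared with that of the invariant chain. The cell had 2 beta chains, of TRBV17 and of the TRBV12-2+TRBV13-2 annotation, and no coreceptor UMI. It was the 1 dual-alpha cell with UMIs of Zbtb16, the gene of the natural killer T cell factor PLZF (3 UMIs), and of Klrb1c, the gene of NK1.1 (2 UMIs). In single-alpha cells, 2 had a TRAV11 and TRAJ18 chain and 3 had a Zbtb16 UMI. No cell used TRAV1 with TRAJ33, the pair of mucosal-associated invariant T cells.

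Foxp3, the lineage factor of regulatory T cells, had UMIs in 4 dual-alpha cells (5.19%, 1.43% to 12.8%) and 22 single-alpha cells (3.05%, 1.92% to 4.58%), with no B-marker barcode positive. After thinning, it was found in 2 of 74 (2.70%) and 15 of 653 (2.30%). The pooled ratio of 3.08 (1.69 to 5.37) rested on the cell of clonotype 737, with 14 of 18 Foxp3 UMIs. This CD4-class cell also had 12 UMIs of Ikzf2, a factor of regulatory T cells, 4 of the inhibitory receptor gene Ctla4, and the highest alpha chain counts, 17 UMIs for TRAV4N-3 with TRAJ18 and 15 for TRAV15N-2 with TRAJ23. Neither V gene had a UMI in any clonotyped cell. The other Foxp3-positive cells had 1, 2 and 1 UMIs. The cell with 2, of clonotype 855 and without a coreceptor UMI, also had 11 UMIs of Ikzf2 and 3 of Ctla4. Of 6 regulatory genes, Foxp3 was more than 1.5-fold higher and 2 were lower, with a median ratio of 0.904. Both of these, Il2ra and Tnfrsf4, had few UMIs in dual-alpha cells, 1 and 4, and are named after their values had been seen. Ctla4 had a ratio of 0.870 (0.504 to 1.42), Ikzf2 of 0.938 (0.630 to 1.35) and Tnfrsf18 of 1.32 (0.945 to 1.82).

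Of 9 activation and checkpoint genes with at least 20 UMIs, 3 were more than 1.5-fold higher and none lower, with a median ratio of 1.09. They were Tigit, Pdcd1 and Egr1, named after their values had been seen. Tigit, an inhibitory receptor, had 34 UMIs, 21 of them in clonotypes 2 and 5, and its ratio went from 1.88 to 0.968 over clonotypes of 1 cell. Pdcd1, which encodes PD-1, had 16 UMIs, 9 of them in 1 cell, and went from 1.65 to 0.933. Tox, Cd28, Cd27 and Cd69 had ratios of 1.07, 1.02, 1.07 and 0.919. Of 4 innate-like genes, 2 were lower and none higher. These were Klrb1c, with 2 UMIs in dual-alpha cells and a ratio of 0.489 (0.0570 to 1.90), and the chemokine gene Xcl1, with 3 UMIs. The activating receptor gene Klrk1 had a ratio of 1.32 (0.925 to 1.84) and Cd160 of 0.796 (0.333 to 1.64).

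Genes of receptor rearrangement and division had few UMIs in dual-alpha cells. Rag1 and Rag2, the recombinase of receptor assembly, had no UMI in dual-alpha or single-alpha cells. Dntt, the polymerase that adds junctional nucleotides, had 20 UMIs in 17 single-alpha cells (0.0446 per 10000) and none in dual-alpha cells, which allows up to 0.0573 per 10000. Mki67, a marker of dividing cells, had 27 UMIs in single-alpha cells (0.0602 per 10000) and none in dual-alpha cells, with the same limit. The Poisson interval of that 0 reaches 0.0704 per 10000 and so includes the single-alpha value. Of the other division genes with at least 20 UMIs, Pcna had a ratio of 0.642 (0.353 to 1.08) and Top2a, with 2 UMIs in dual-alpha cells, of 0.611 (0.0706 to 2.42), both past 1.5-fold lower. Stmn1 had a ratio of 1.15 (0.661 to 1.89).

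Markers of other cells summed to at most 1.81 UMIs per 10000 for each list in the dual-alpha cells. The 6 B cell markers had this sum, against 1.65 in single-alpha cells, led by Ighm with 85 of 95 UMIs, while Ms4a1 was at 0. Ighm had a UMI in 41 dual-alpha and 327 single-alpha cells. The 5 natural killer markers summed to 0.515 against 0.334, led by Klre1, with Ncr1 at 0. The 4 monocyte markers summed to 0.668 against 0.397, led by Ccr2, which T cells also express, with 27 of 35 UMIs and Csf1r at 0. The 4 platelet markers summed to 0.630 against 0.667, led by Pf4. All 4 neutrophil markers were at 0, against 0.0156, and the 4 erythroid markers summed to 0.0191 against 0.0535, with 1 UMI of Hbb-bs and the others at 0. The 5 gamma delta T markers summed to 0.134 against 0.143, led by Tcrg-C2 and with Trdc, Tcrg-C1 and Sox13 at 0. The 5 SCLC markers summed to 0.0382 against 0.0535, led by Epcam with 2 UMIs, and Chga and Syp were at 0. Ribosomal protein genes took a median of 28.6% of the UMIs of dual-alpha cells and 26.5% in single-alpha cells, and mitochondrial genes 1.48% and 1.51%. Malat1, a nuclear RNA, had 72.4 against 87.6 UMIs per 10000, and Neat1 0.916 against 0.874. The part of these differences in the results above was not tested.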

How the data were processed

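TCR and gene expression libraries of blood T cells from 1 vehicle mouse were used. The authors ran Cell Ranger, version 4 by the matrix header, and deposited raw counts: UMI and read counts per TCR contig, and UMI counts of 32285 genes in 300213 unfiltered barcodes (12855001 UMIs). The version used for TCR contigs is not given in the sources used here. The submitters' processing notes name GRCm38. Gene positions are those of GENCODE on GRCm39, matched by Ensembl identifier and used for position alone, and CDR3 sequences are from the contig table. How contigs were called productive, and chains lost at low UMI counts, bear directly on which cells have 2 alpha chains.

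Clonotypes and productive calls are the authors'. A chain was a different CDR3 nucleotide sequence in a cell. UMIs were pooled over cells per 10000. A gene counted as past the fold above 1.5 or below its inverse, at 200 or more UMIs over both groups. List genes were counted from 20 UMIs. Named were the 10 highest and 10 lowest ratios, the 4 genes with most UMIs of each list that had them, and lineage, granzyme and recombination genes. Some genes that the rule or the lists hold are not reported here. A limit for a count of 0 is that of 3 counts. The members, gene lists and comparisons were chosen with earlier results of these data known. Doublets were predicted with Scrublet in Scanpy 1.11.5 (14 of 1600 barcodes over 1331 UMIs) and kept. The ratio function was tested on simulated data. Python 3.11.15 and SciPy 1.17.1 were used. Alternatives were other UMI minimums per chain, other definitions of a different chain, other cell and gene filters, pooling and pseudocount.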

Additional observations from a re-analysis of the deposited data

How the results depend on the processing

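With 1 library from 1 mouse, values here describe these cells and not the vehicle condition. No paired analysis was possible because there is 1 sample and no replicate. Of 77 alternative values, 65 stayed within the counting interval of a share, the quartiles of the chain ratio or 1.5 times a count of genes. The share of dual-alpha cells ranged from 8.49%, with at least 3 UMIs for each chain, to 9.72%, among barcodes over the UMI limit. The share of single-alpha cells with a UMI of their V gene rose from 63.9% to 69.4% when any gene of the same TRAV family was accepted. The count of genes past 1.5-fold moved with the filter and the scale. From 43 higher and 128 lower it became 411 and 874 at 50 UMIs, 4 and 10 at 500 UMIs, 66 and 228 with the mean over cells, and 18 and 70 with a pseudocount of 0.1 per 10000. Against single-alpha cells with a non-productive TRA contig it was 5 and 3, where 900 genes passed the filter, and 29 of the 43 and 84 of the 128 were past the fold there before the filter. The CD8 class alone, added after the data had been seen, gave 33 higher and 69 lower of 2308 genes. Also added then, leaving out clonotypes of several cells gave 33 and 137, and 29 of the 43 and 104 of the 128 genes remained past the fold. Second chains of 1 UMI, and chains never assembled, limit every share given here.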
